A study of Homo sapiens with 8 samples.

Results

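The messenger RNA of 40 genes of autophagy and mitophagy was followed in SRA01/04 cells with and without a hairpin against SMURF1. The genes were chosen by name, from the kinase complex that starts autophagy to the receptors that deliver cargo and damaged mitochondria. Earlier results of these data were known when they were chosen. Each of the 40 symbols matched 1 Ensembl gene in GENCODE release 29, so the list holds 40 of the 58735 genes in the count table. Of these, 39 had enough counts to be tested, as did 15647 genes in all. MAP1LC3A was the member left out. SRA01/04 is an immortalised line of epithelial cells from the human lens. The 4 shControl libraries come from cells with a control hairpin, whose genotype is labelled WT. The 4 shSmurf1 libraries come from cells of the Smurf1 knockdown line. All 8 cultures received TGF-β2, a growth factor that pushes lens epithelium towards fibrosis, at 20 ng/ml for 48 h, so a response to TGF-β2 itself cannot be read from them. The labels do not say whether either line is a single clone or a pool, and call the 4 libraries of each line biological replicates without saying what separates them. P-values therefore reflect how far these libraries of 1 line a group spread.

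Autophagy is the process by which a double membrane, the phagophore, grows around cytoplasm, closes into an autophagosome and fuses with the lysosome. A kinase complex built on ULK1 starts it, a lipid kinase complex marks the membrane with phosphatidylinositol 3-phosphate, and ubiquitin-like conjugation then attaches proteins of the ATG8 family (LC3 and GABARAP) to the growing membrane. Cargo receptors bind both the cargo and ATG8 proteins, and mitophagy is the same route taken for mitochondria, through PINK1 or through receptors in the outer mitochondrial membrane. In the lens, organelles are cleared as epithelial cells become fibre cells, and SMURF1, a ubiquitin ligase of the HECT type, has been linked to selective autophagy.

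Promoter sequence is shown for the genes whose change passed the test and that have an entry in RefSeq's promoter table (GRCh38.p14), together with BNIP3, the gene of mitophagy outside the list with the largest change among those tested. BNIP3L, ATG4D, MAP1LC3A, UVRAG, RB1CC1 and PINK1 have no entry. Each stretch lies upstream of both the RefSeq and the GENCODE start of its gene, reads 5′ to 3′ on the gene's strand, and has in capitals each match to ACGTG on either strand, the core of the element bound by hypoxia-inducible factors.
GABARAPL2 (chr16:75566129-75566350, plus strand): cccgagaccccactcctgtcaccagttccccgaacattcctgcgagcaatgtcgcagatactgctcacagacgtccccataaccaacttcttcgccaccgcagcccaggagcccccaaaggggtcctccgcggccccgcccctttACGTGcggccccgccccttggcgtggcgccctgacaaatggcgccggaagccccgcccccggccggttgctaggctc
AMBRA1 (chr11:46594126-46594273, minus strand): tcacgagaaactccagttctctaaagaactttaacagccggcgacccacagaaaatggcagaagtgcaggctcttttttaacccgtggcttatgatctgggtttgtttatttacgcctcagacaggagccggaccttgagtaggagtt
ATG2A (chr11:64917249-64917459, minus strand): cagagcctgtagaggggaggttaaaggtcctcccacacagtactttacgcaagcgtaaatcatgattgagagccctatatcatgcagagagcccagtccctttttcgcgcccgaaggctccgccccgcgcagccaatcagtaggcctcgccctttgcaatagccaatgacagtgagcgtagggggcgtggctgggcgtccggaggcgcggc
BNIP3 (chr10:131982014-131982173, minus strand): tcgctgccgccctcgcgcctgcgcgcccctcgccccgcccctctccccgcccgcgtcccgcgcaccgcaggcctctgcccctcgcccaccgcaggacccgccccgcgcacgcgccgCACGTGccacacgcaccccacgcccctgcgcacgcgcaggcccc
ACGTG occurred once upstream of GABARAPL2, whose messenger RNA rose, and not in the stretches of AMBRA1 and ATG2A. Upstream of BNIP3, whose messenger RNA fell, it occurred on both strands at a single place, where the matches overlap as CACGTG, the E-box that TFEB and MYC also bind. Over RefSeq's windows of 300 bases, ACGTG was found on either strand in 12 of 42 windows of 34 members, or 28.6%, against 21.4% of all 35116 windows. CACGTG was found in 3 member windows (7.14%, against 7.26% of all), and GTAAACA, a forkhead motif bound by FOXO factors, in 1 (2.38%, against 3.42%). A match describes the letters only.

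Library totals ranged from 14688651 to 17030394 counts. SMURF1, the targeted gene, lay at 85.8 to 93.3 CPM (counts per 1000000 counts of the library, after TMM scaling) in shControl and at 50.4 to 51.4 CPM in shSmurf1, a log2 fold change of −0.80 ± 0.055 (SE, n = 4 each, edgeR adjusted p = 2.86e-09). The 50 nearest expressed genes around it on chromosome 7 had a median log2 fold change of −0.24. Of 9 markers of lens epithelium, 4 were tested, PAX6, SIX3, CDH2 and GJA1, while the other five (FOXE3, MAF, PROX1, CRYAA and CRYAB) stayed at or below 1.21 CPM in every library. The summed level of the list, most of it CDH2, was 454 to 463 CPM in shControl and 366 to 412 CPM in shSmurf1, with GJA1 and SIX3 lower in shSmurf1. CDH2 had means of 328 CPM in shControl and 299 CPM in shSmurf1. Its groups did not overlap, but it did not pass (log2 fold change −0.14, edgeR adjusted p = 0.0519), and neither did PAX6 (0.025). For 9 lens fibre genes, of which 3 were tested, the sum was 6.67 to 9.27 CPM in shControl and 6.44 to 8.13 CPM in shSmurf1, with LIM2 at 0 in every library. For 5 blood and immune genes, of which CD14 alone was tested and rose, the sum was 6.27 to 8.59 CPM in shControl and 11.7 to 14.4 CPM in shSmurf1, with LYZ and CD3E at 0 in every library. Endothelial markers (4 genes) summed to 2.21 to 3.46 CPM in shControl and 0.986 to 3.01 CPM in shSmurf1. Melanocyte markers (4 genes) summed to 2.98 to 4.61 CPM in shControl and 2.50 to 3.65 CPM in shSmurf1. The part of these marker differences in the results was not tested. In bulk RNA, fewer cells with a transcript and less of it per cell cannot be told apart. The library of shSmurf1 replicate 3 stood apart. Relative to the mean of all 8 libraries, its log2 CPM fell by 0.12 for each 10 percentage points of GC content of a gene, whereas it rose by 0.070 to 0.11 in the other three shSmurf1 libraries. In shControl the slope ran from −0.061 to −0.020. Counts over the members and over the other lists are therefore given with and without this library.

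Of the 39 members tested, 2 rose, GABARAPL2 and AMBRA1, 2 fell, BNIP3L and ATG2A, and 35 did not pass (edgeR quasi-likelihood test, adjusted p under 0.05 over all genes). That is 10.3% of the members, against 22.5% of all genes tested (10.3% higher and 12.2% lower) and 28.3% of the 8880 genes whose average log2 CPM was 4 or more, the range that holds 37 of the 39 members. At an unadjusted p under 0.05 in the same edgeR test, 4 members were higher and 5 lower. Of all genes tested 33.6% passed that cut, and counts below at an unadjusted p are to be read against that share. The median log2 fold change of the members was −0.010 and that of all genes tested 0.0074. The median size of the change, whatever its sign, was 0.10 for members, 0.15 for all genes and 0.11 for genes of that level. No member differed by more than 0.39 on the log2 scale, the value of BNIP3L, and members ranged from 76.3% of control, in BNIP3L, to 127%, in GABARAP. The 95% interval of the log2 fold change lay within 0.5 of 0 on both sides for 33 of the 35 members that did not pass, and within 0.32 for 28 of them, so larger changes lie outside these intervals. The other two were ATG10 (−0.65 to 0.080) and GABARAP (−0.15 to 0.83), both of low counts.

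**Figure D1:**
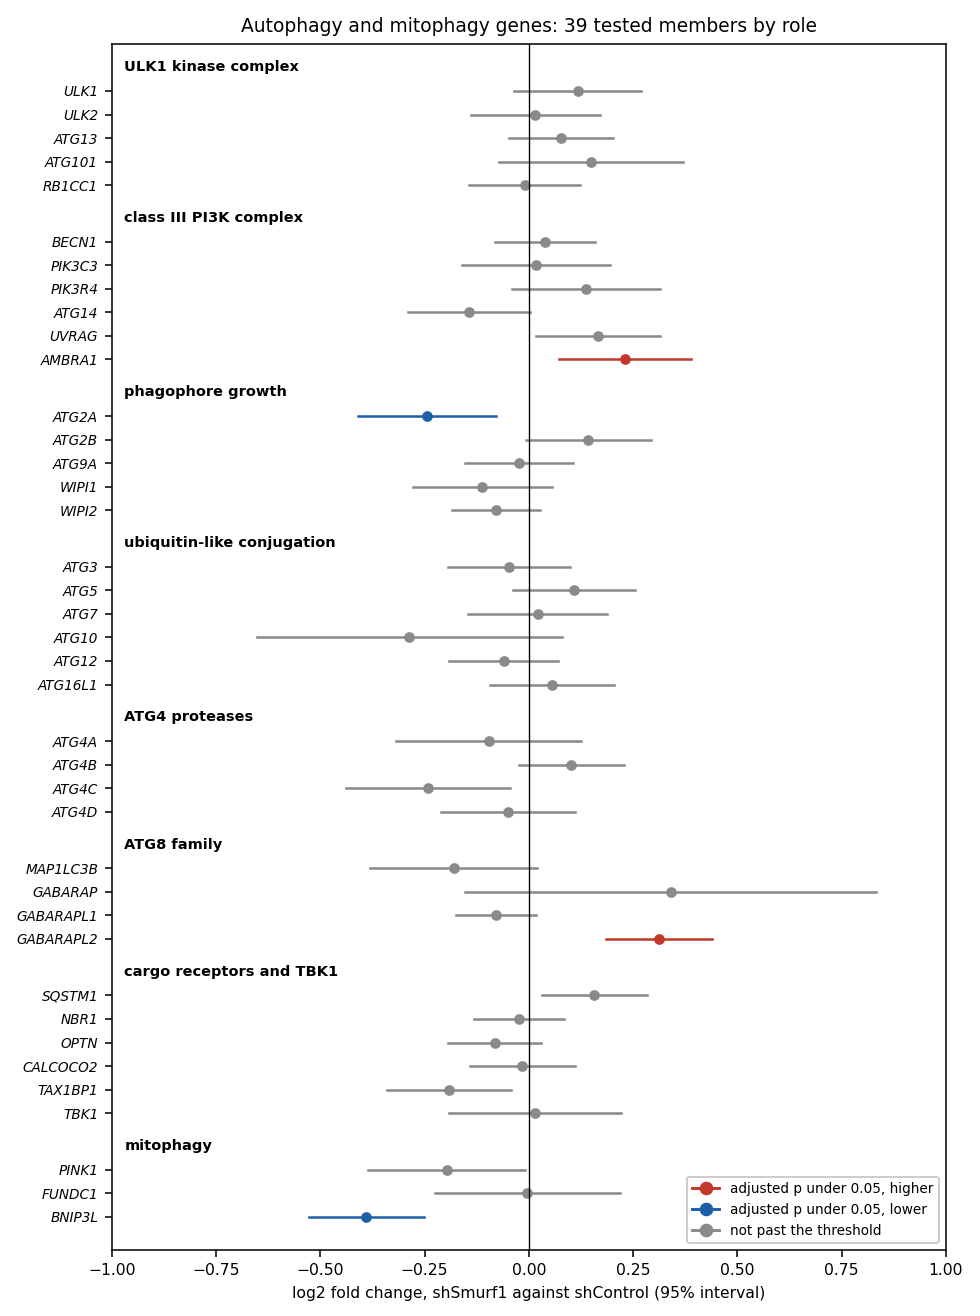
Log2 fold change of shSmurf1 against shControl (x axis) for the 39 members tested, in role groups; points are edgeR estimates, lines 95% intervals from 4 libraries a group, and colour marks an adjusted p under 0.05. GABARAPL2 and AMBRA1 lie to the right, BNIP3L and ATG2A to the left, and most other intervals span 0.

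The libraries did not overlap between groups for 6 members, 3 higher in shSmurf1 (GABARAPL2, UVRAG and ATG2B) and 3 lower (BNIP3L, GABARAPL1 and ATG4C). Among all genes tested 23.7% did not overlap (10.6% higher, 13.1% lower). AMBRA1 and ATG2A passed the test although their groups overlapped. Exons of 23 of the 40 members overlap another gene model, mostly on the opposite strand, and the sources used here do not state counting by strand. GABARAPL2, AMBRA1 and ATG2A are not among the 23. BNIP3L shares 330 of its 4307 exon bases with PNMA2 and SQSTM1 1582 of 7654 with MRNIP, each on the opposite strand. Reads of such a pair can be told apart only if counted by strand. Replicates of the members were close, with a median coefficient of variation of 5.16% in shControl. It was 7.99% in shSmurf1, and 4.55% there without replicate 3. Over all genes tested the medians moved in the same way, with 7.18% in shControl, 10.3% in shSmurf1 and 6.96% there without replicate 3.

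Levels of different genes were compared per kilobase of merged exons, a length that counts every annotated isoform. In shControl BNIP3L was highest, at 49 CPM per kilobase, followed by GABARAPL1 at 45 and SQSTM1 at 42.5. The next were OPTN at 25.7, NBR1 at 25.5, GABARAPL2 at 21.4, CALCOCO2 at 20.9 and ULK1 at 20.7. OPTN and NBR1 did not differ beyond their spread, nor did GABARAPL2, CALCOCO2 and ULK1. The libraries of GABARAPL1 and SQSTM1 overlapped as well. Those named so far were thus BNIP3L, 4 cargo receptors, 2 of the 5 ATG8 genes and ULK1, whereas TAX1BP1 at 11.7 and MAP1LC3B at 8.81 lay mid-order. Below ULK1, levels per kilobase ran from 15.4 for WIPI2 down to 4.23 for AMBRA1 without a wide gap, and then to 2.92 for ULK2, 2.72 for ATG7, 1.82 for ATG2B, 1.54 for PIK3C3 and 0.933 for ATG10. GABARAP (0.865) and MAP1LC3A (0.111) came last, though the count of GABARAP is uncertain as a level, as described below. In shSmurf1 the first 3 were SQSTM1 at 47.3, GABARAPL1 at 42.6 and BNIP3L at 37.4 CPM per kilobase, with libraries that overlapped between neighbours in that order.

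**Figure D2:**
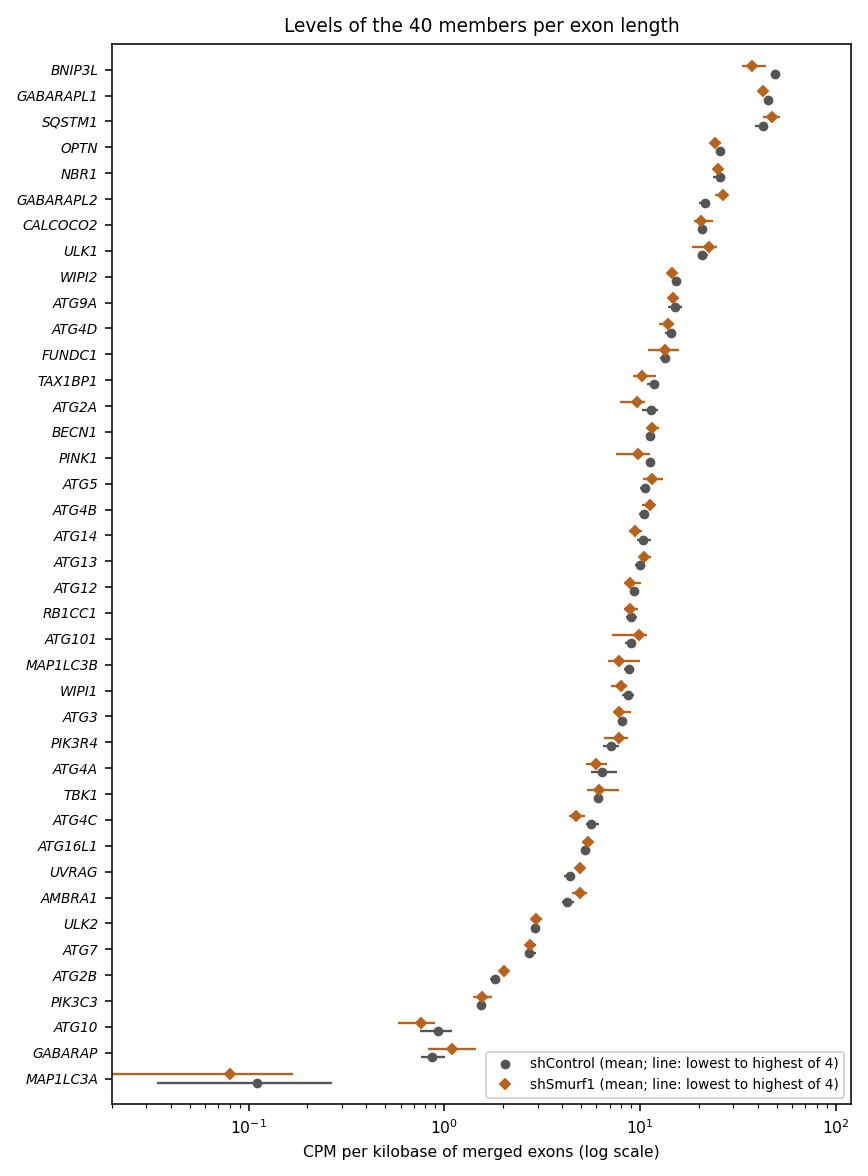
Level of each of the 40 members per kilobase of merged exons (x axis, log scale) in shControl (circles) and shSmurf1 (diamonds); points are means of 4 libraries and lines run from the lowest to the highest library, with a library at 0 drawn at the left edge. BNIP3L, GABARAPL1 and SQSTM1 lead in both groups, and MAP1LC3A lies near 0.

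Genes of the kinase complex that starts autophagy were 5, and 0 passed with edgeR (0 also at an unadjusted p under 0.05, with DESeq2 and with limma-voom). ULK1 and ULK2 are its kinases, ATG13 and ATG101 its regulatory partners, and RB1CC1 (FIP200) its scaffold. The log2 fold changes were 0.12 for ULK1, 0.15 for ATG101, 0.077 for ATG13, 0.016 for ULK2 and −0.010 for RB1CC1, with adjusted p from 0.281 to 0.937. ULK1 stood at 152, 155, 170 and 153 CPM in shControl replicates 1 to 4 and 173, 189, 140 and 181 CPM in shSmurf1 replicates 1 to 4. Replicate 3 was the lowest of all 8 libraries, and the other three shSmurf1 libraries were the highest. ATG101 showed the same order, at 29.8, 28, 26.9 and 29.96 CPM in shControl replicates 1 to 4 and 34.6, 34.5, 23.1 and 34.9 CPM in shSmurf1 replicates 1 to 4. Without shSmurf1 replicate 3 both passed as higher, with log2 fold changes of 0.20 (adjusted p = 0.000653) and 0.28 (adjusted p = 0.00237). With each library's GC trend removed neither passed (ULK1 0.0062, ATG101 0.076). ULK1 is a GC-rich gene, at 64.1% GC.

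Among 6 genes of the class III lipid kinase complex, AMBRA1 rose and the other five did not pass. PIK3C3 (VPS34) is the catalytic subunit, PIK3R4 (VPS15) its regulatory kinase and BECN1 (beclin 1) the core they share, while ATG14 directs the complex to autophagosome formation and UVRAG to endosomes. AMBRA1 (ENSG00000110497, GRCh38 chromosome 11, 46396414 to 46594125, minus strand), a scaffold that binds beclin 1 and serves cullin ubiquitin ligases, was measured at 31.7, 32.5, 30.6 and 35.1 CPM in shControl replicates 1 to 4 and 39.4, 37.1, 34.5 and 41.4 CPM in shSmurf1 replicates 1 to 4. Replicates 1, 2 and 4 of shSmurf1 lay above every control, and replicate 3 lay just below the highest control. The means were 32.5 ± 1.92 and 38.1 ± 2.98 CPM (SD, n = 4 each) and the log2 fold change 0.23 ± 0.075 (SE, edgeR adjusted p = 0.0324). This call was lost when any library other than shControl replicate 4 or shSmurf1 replicate 3 was left out (adjusted p up to 0.116). UVRAG was measured at 26.1, 29, 29.2 and 27.6 CPM in shControl replicates 1 to 4 and 32.3, 30.8, 31.4 and 30.9 CPM in shSmurf1 replicates 1 to 4. Every shSmurf1 library lay above every control, yet the log2 fold change of 0.17 ± 0.072 did not pass (adjusted p = 0.107) except with the GC trend removed, with or without shSmurf1 replicate 3 (0.21, adjusted p = 0.0199, with all libraries).

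Of the subunits, PIK3R4 was measured at 37.9, 42.1, 37.7 and 34.9 CPM in shControl replicates 1 to 4 and 35.2, 44.4, 46.9 and 41.5 CPM in shSmurf1 replicates 1 to 4. Its groups overlapped, with a log2 fold change of 0.14 ± 0.085 (adjusted p = 0.273), and it passed in 1 other fit, with the GC trend removed (0.19, adjusted p = 0.0406). ATG14 was measured at 48.9, 50.3, 57.5 and 53.9 CPM in shControl replicates 1 to 4 and 44.3, 46.6, 52.1 and 47.7 CPM in shSmurf1 replicates 1 to 4. The groups overlapped through replicate 3, and the log2 fold change of −0.14 ± 0.070 (adjusted p = 0.159) passed only without that library (−0.19, adjusted p = 0.0202). With the GC trend also removed, ATG14 without that library did not pass (−0.10, adjusted p = 0.2455). The expressed genes around ATG14 on chromosome 14 had a median of −0.21. BECN1 lay at 0.039 (95% interval −0.081 to 0.16) and PIK3C3 at 0.017 (−0.16 to 0.20).

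Of 5 genes that serve growth of the phagophore, ATG2A fell and the rest did not pass. ATG2A and ATG2B are bridge proteins that carry lipid to the membrane, ATG9A is the scramblase of the vesicles that seed it, and WIPI1 and WIPI2 bind phosphatidylinositol 3-phosphate. ATG2A (ENSG00000110046, GRCh38 chromosome 11, 64894546 to 64917248, minus strand) was measured at 80.7, 93.3, 97.8 and 88.3 CPM in shControl replicates 1 to 4 and 80.1, 77.9, 62.4 and 83.6 CPM in shSmurf1 replicates 1 to 4. Replicate 3 was far below the rest, and the highest shSmurf1 library lay above the lowest control. The means were 90.02 ± 7.32 and 76 ± 9.37 CPM (SD, n = 4 each) and the log2 fold change −0.24 ± 0.079 (SE, edgeR adjusted p = 0.0318). Without shSmurf1 replicate 3 it still passed, at −0.16 (adjusted p = 0.0267). It did not pass without shControl replicate 2, 3 or 4 or shSmurf1 replicate 2 (adjusted p up to 0.124) or without TMM scaling (adjusted p = 0.0573). Its paralog ATG2B was measured at 27.9, 27.4, 25.2 and 27.3 CPM in shControl replicates 1 to 4 and 29, 30.03, 30.8 and 29.2 CPM in shSmurf1 replicates 1 to 4. Every shSmurf1 library lay above every control, but the log2 fold change of 0.14 ± 0.072 did not pass (adjusted p = 0.172). The paralogs differ in base composition, with 63.8% GC in ATG2A and 43.6% in ATG2B. With the GC trend removed ATG2A lay at −0.35 (adjusted p = 4.04e-06) and ATG2B passed as higher at 0.20 (adjusted p = 0.0235). ATG9A (−0.023), WIPI1 (−0.11) and WIPI2 (−0.078) did not pass.

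The ubiquitin-like conjugation genes were 6, and 0 passed with edgeR (0 also at an unadjusted p under 0.05, with DESeq2 and with limma-voom). ATG7 is the activating enzyme, ATG10 and ATG3 the conjugating enzymes for ATG12 and for ATG8 proteins, and ATG12, ATG5 and ATG16L1 form the complex that places ATG8 proteins on the membrane. Log2 fold changes ran from −0.29 for ATG10, which had only 5.08 CPM in shControl, through −0.060 for ATG12, −0.048 for ATG3, 0.022 for ATG7 and 0.056 for ATG16L1 to 0.11 for ATG5. ATG5 was measured at 61.2, 59, 63.6 and 57 CPM in shControl replicates 1 to 4 and 64.8, 61.9, 74.2 and 58.9 CPM in shSmurf1 replicates 1 to 4. Its highest library was shSmurf1 replicate 3, and the groups overlapped. ATG5 passed with the GC trend removed (0.18, adjusted p = 0.00555). ATG12 was measured at 80.01, 83.5, 82.9 and 85.2 CPM in shControl replicates 1 to 4 and 77.7, 77.1, 89.9 and 73.5 CPM in shSmurf1 replicates 1 to 4. Replicate 3 was again the highest, and without it ATG12 passed as lower (−0.12, adjusted p = 0.0496). With the GC trend also removed, ATG12 without that library did not pass and changed sign (0.013, adjusted p = 0.877).

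The ATG4 proteases trim ATG8 proteins and release them from membranes, and 0 of 4 passed with edgeR (0 also with DESeq2 and limma-voom, and 1, ATG4C, at an unadjusted p under 0.05). ATG4C was measured at 16.8, 16.5, 19.2 and 17.1 CPM in shControl replicates 1 to 4 and 14.5, 14.8, 16.2 and 13.5 CPM in shSmurf1 replicates 1 to 4. Every shSmurf1 library lay below every control. The log2 fold change was −0.24 ± 0.094 (adjusted p = 0.0734), and −0.29 without shSmurf1 replicate 3 (adjusted p = 0.0189). The 50 expressed genes nearest to ATG4C on chromosome 1 had a median log2 fold change of −0.23, and the part of this in its value was not tested. ATG4B was measured at 72.3, 66, 69.2 and 70.6 CPM in shControl replicates 1 to 4 and 76, 78.5, 67.8 and 76.3 CPM in shSmurf1 replicates 1 to 4. Replicate 3 was the lowest shSmurf1 library, and ATG4B lay at 0.10 with it (adjusted p = 0.246) and at 0.15 without it (adjusted p = 0.0210). With the GC trend also removed, ATG4B without that library did not pass (0.047, adjusted p = 0.517). ATG4A lay at −0.10 and ATG4D at −0.050.

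In the ATG8 family GABARAPL2 (GATE-16) rose, and MAP1LC3B, GABARAPL1 and GABARAP did not pass. GABARAPL2 (ENSG00000034713, GRCh38 chromosome 16, 75566351 to 75577881, plus strand) was measured at 67, 65.2, 60.5 and 67 CPM in shControl replicates 1 to 4 and 81.1, 83.4, 84.8 and 73.4 CPM in shSmurf1 replicates 1 to 4. Every shSmurf1 library lay above every control. The means were 64.9 ± 3.06 and 80.7 ± 5.07 CPM (SD, n = 4 each), and the log2 fold change was 0.31 ± 0.061 (SE, edgeR adjusted p = 0.000852). It passed in all 17 other fits, with log2 fold changes from 0.28 to 0.36, and its expressed neighbours on chromosome 16 had a median of 0.015. GABARAPL1, the family member with the highest level, was measured at 186, 184, 179 and 186 CPM in shControl replicates 1 to 4 and 173, 170, 175 and 179 CPM in shSmurf1 replicates 1 to 4. Every shSmurf1 library lay below every control, by little. Its log2 fold change was −0.079 ± 0.046 and did not pass (adjusted p = 0.247).

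MAP1LC3B, the LC3 gene whose protein is the usual marker of autophagosomes, was measured at 48.8, 46.9, 44.1 and 47.4 CPM in shControl replicates 1 to 4 and 37.1, 36.5, 53 and 38.7 CPM in shSmurf1 replicates 1 to 4. The library of shSmurf1 replicate 3 was the highest of all 8, and the other three shSmurf1 libraries lay below every control. The log2 fold change was −0.18 with all libraries (adjusted p = 0.195) and −0.32 without replicate 3 (adjusted p = 0.000141). A near-identical copy, MAP1LC3B2, lies elsewhere in the genome, so reads of the pair can be lost or split. MAP1LC3A was barely detected, with 1, 7, 3 and 1 counts in shControl and 1, 3, 0 and 5 counts in shSmurf1. GABARAP had only 29 to 34 counts in shControl and 28 to 50 counts in shSmurf1. Of its 2266 exon bases, 691 are shared on the same strand with the model AC120057.2, which had 0 counts in every library. Reads in a shared stretch may be left uncounted, so the GABARAP count is uncertain as a level of its messenger RNA. ATG9A shares 1833 of 4724 exon bases with AC068946.2 in the same way.

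**Figure D3:**
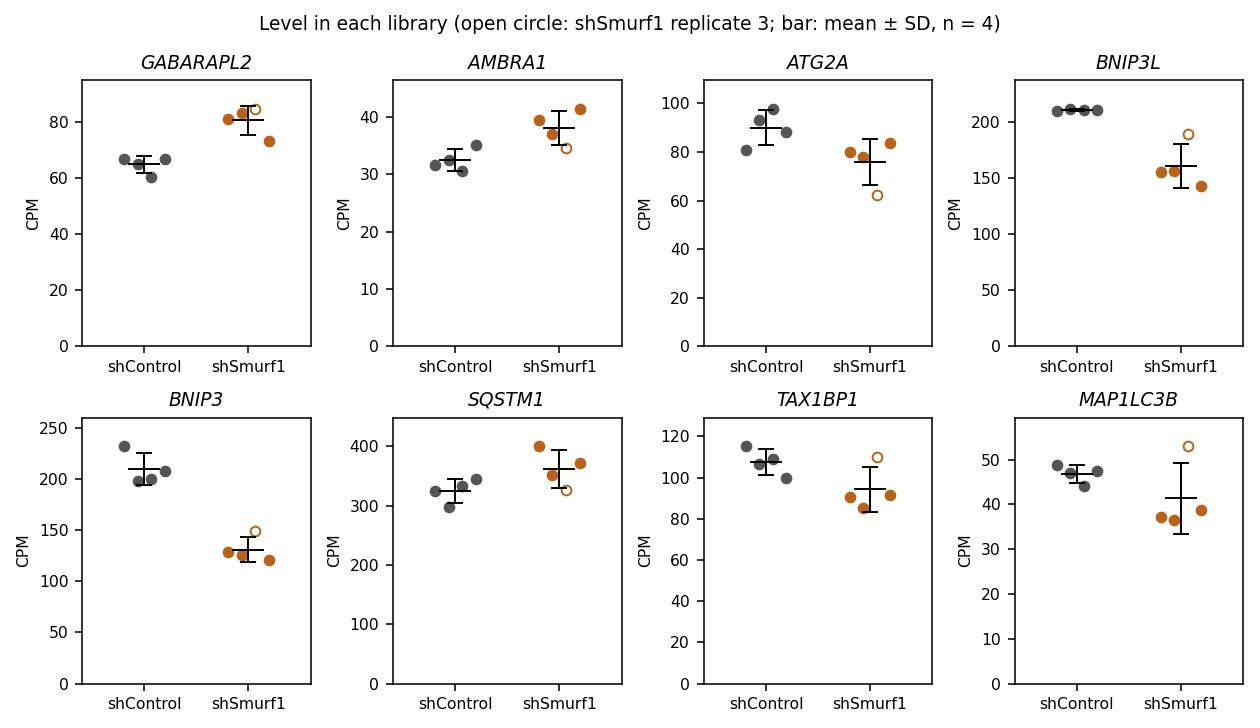
CPM in each library (points; open circle, shSmurf1 replicate 3) with mean ± SD of 4 libraries a group for the 4 members that passed, for BNIP3 and for 3 members that did not pass with all libraries. In SQSTM1, TAX1BP1 and MAP1LC3B the open circle sits among or above the shControl points, apart from the other shSmurf1 libraries, whereas in GABARAPL2, BNIP3L and BNIP3 all shSmurf1 points lie on one side of shControl.

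Of 5 cargo receptors and TBK1, the kinase that phosphorylates them, 0 passed with edgeR. With DESeq2 and limma-voom 0 passed too, and at an unadjusted p under 0.05 SQSTM1 was higher and TAX1BP1 lower. Of all genes tested, 33.6% passed at that unadjusted p. SQSTM1 (p62), a receptor for ubiquitinated cargo, was measured at 325, 297, 333 and 344 CPM in shControl replicates 1 to 4 and 400, 351, 326 and 372 CPM in shSmurf1 replicates 1 to 4. Replicate 3 lay among the controls and the other three shSmurf1 libraries above them. Its log2 fold change was 0.16 ± 0.061 (adjusted p = 0.0693), and 0.21 without shSmurf1 replicate 3 (adjusted p = 0.000562). It also passed without TMM scaling (adjusted p = 0.0422) and when genes of low counts were kept (adjusted p = 0.0308), but not with the GC trend removed (adjusted p = 0.0958). TAX1BP1, a receptor with ubiquitin-binding zinc fingers, was measured at 115, 107, 109 and 99.8 CPM in shControl replicates 1 to 4 and 90.6, 85, 110 and 91.7 CPM in shSmurf1 replicates 1 to 4. Its shSmurf1 replicates 1, 2 and 4 lay below every control, and replicate 3 lay among the controls. Its log2 fold change was −0.19 ± 0.071 (adjusted p = 0.0587), and −0.27 without that library (adjusted p = 7.55e-05). TAX1BP1 passed in 5 of the 17 other fits and SQSTM1 in 3. OPTN was measured at 134, 135, 132 and 127 CPM in shControl replicates 1 to 4 and 125, 117, 133 and 123 CPM in shSmurf1 replicates 1 to 4. Replicate 3 lay within the range of the controls, and OPTN, a receptor of mitochondria and bacteria, passed as lower only without it (−0.11, adjusted p = 0.0394, against −0.082 and 0.301 with it). With the GC trend also removed, OPTN without that library did not pass (−0.060, adjusted p = 0.303). NBR1 (−0.023), CALCOCO2 or NDP52 (−0.015) and TBK1 (0.015) did not pass. The 95% interval of NBR1 was −0.13 to 0.084 and that of CALCOCO2 −0.14 to 0.11.

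Among the 3 mitophagy members BNIP3L fell, and PINK1 and FUNDC1 did not pass. BNIP3L (NIX, ENSG00000104765, GRCh38 chromosome 8, 26382898 to 26505636, plus strand) is a receptor in the outer mitochondrial membrane, known for clearing mitochondria from red cells and from the differentiating lens and for its induction in hypoxia. It was measured at 210.4, 212.0, 210.8 and 210.6 CPM in shControl replicates 1 to 4 and 155.8, 156.2, 189.4 and 143.1 CPM in shSmurf1 replicates 1 to 4. The controls were close together, at 211 ± 0.708 CPM (SD, n = 4), and every shSmurf1 library lay below them, replicate 3 nearest. The shSmurf1 mean was 161 ± 19.8 CPM (SD, n = 4), or 76.3% of control in the fit. The log2 fold change was −0.39 ± 0.066 (SE, edgeR adjusted p = 0.000212). It passed in all 17 other fits, from −0.47, without shSmurf1 replicate 3, to −0.34, with the GC trend removed, and its expressed neighbours had a median of 0.014. PINK1, the kinase that flags damaged mitochondria, was measured at 52, 54.2, 55.9 and 56 CPM in shControl replicates 1 to 4 and 47.3, 51.7, 36.6 and 54.4 CPM in shSmurf1 replicates 1 to 4. Replicate 3 was the lowest library, and the groups overlapped. The log2 fold change was −0.20 ± 0.090 (adjusted p = 0.13), and −0.090 without replicate 3 (adjusted p = 0.254). It passed without shSmurf1 replicate 4 (adjusted p = 0.0440) and with the GC trend removed (adjusted p = 0.0157). PINK1 shares 1907 exon bases with PINK1-AS on the opposite strand, so reads of that pair too can be told apart only if counted by strand. FUNDC1, a receptor of hypoxia-induced mitophagy, lay at −0.0033 (−0.23 to 0.22).

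The number of members that passed depended on shSmurf1 replicate 3. Without it 6 members were higher and 8 lower, together 14 of 39, against 33.7% of all genes in that fit (16.4% higher, 17.3% lower). Those higher were ULK1, ATG101, AMBRA1, ATG4B, GABARAPL2 and SQSTM1, and those lower ATG14, ATG2A, ATG12, ATG4C, MAP1LC3B, OPTN, TAX1BP1 and BNIP3L. Replicate 3 was the shSmurf1 library farthest from its group's median for 26 of the 39 members, against 2, 5 and 6 for replicates 1, 2 and 4. This was not limited to the members. Over all genes of average log2 CPM above 1, its median distance from the mean of the other shSmurf1 libraries was 0.17. For replicates 1, 2 and 4 that distance was 0.084 to 0.10 on the log2 scale. Replicate 3 lay above the mean of the other three for 23 of the 25 members with under 50% GC, by a median of 0.18 on the log2 scale. It lay below that mean for 10 of the 14 members with 50% GC or more, with a median of −0.18. With each library's GC trend removed, 6 members were higher (PIK3R4, UVRAG, AMBRA1, ATG2B, ATG5 and GABARAPL2) and 3 lower (ATG2A, PINK1 and BNIP3L), against 13.7% and 14.8% of all genes. With the trend removed and without replicate 3, 5 were higher (UVRAG, AMBRA1, ATG2B, ATG5 and GABARAPL2) and 6 lower (ATG2A, WIPI2, ATG4D, MAP1LC3B, TAX1BP1 and BNIP3L), together 11 of 39, against 28.1% of all genes. GABARAPL2, AMBRA1, BNIP3L and ATG2A passed in the same direction in each of these 3 fits. Over all 17 other fits, AMBRA1 did not pass in 6 and ATG2A in 5.

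**Figure D4:**
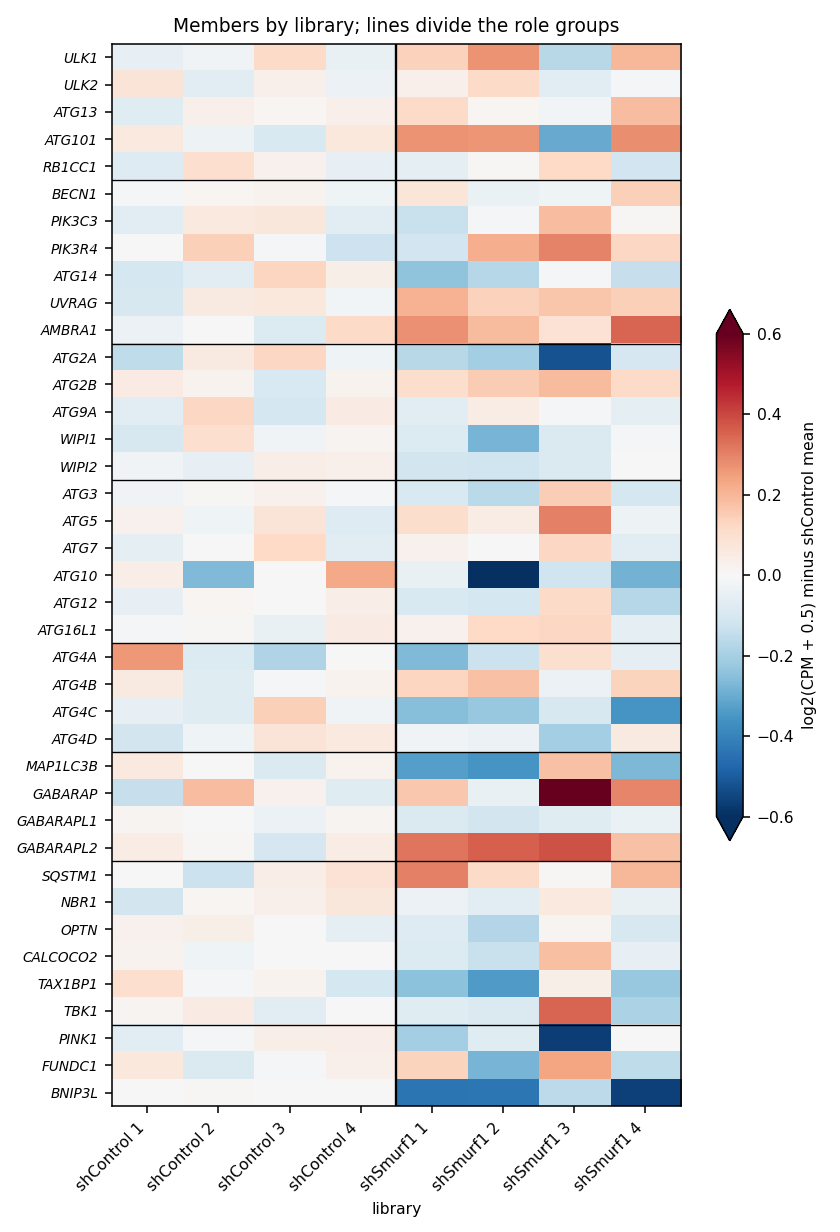
Log2(CPM + 0.5) of each tested member (rows, in role groups) in each library (columns) minus its shControl mean; red is higher and blue lower. The column of shSmurf1 replicate 3 has the opposite colour to the other shSmurf1 columns for ULK1, ATG101, MAP1LC3B, TBK1 and CALCOCO2, whereas GABARAPL2 is red and BNIP3L blue in all 4.

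Other genes of the pathway, outside the 40, gave 10 higher and 11 lower of 77 tested, or 27.3%, which lies between the 22.5% of all genes and the 28.3% of genes of average log2 CPM 4 or more. These lists too were chosen with earlier results of these data known, so the shares are not an independent comparison. The counts below are to be read against the 10.3% of all genes called higher and 12.2% called lower, or, without shSmurf1 replicate 3, 16.4% and 17.3%. At an unadjusted p under 0.05 the share of all genes was 33.6%, in either direction. Among 19 further genes of mitophagy and mitochondrial quality, 3 rose and 2 fell (4 and 4 without shSmurf1 replicate 3). BNIP3, the paralog of BNIP3L and a textbook target of hypoxia-inducible factors, was measured at 232, 198, 200 and 207 CPM in shControl replicates 1 to 4 and 128, 126, 149 and 121 CPM in shSmurf1 replicates 1 to 4. Every shSmurf1 library lay below every control, with a log2 fold change of −0.68 ± 0.066 (SE, edgeR adjusted p = 3.99e-07), and it passed in all 17 other fits. TOMM20, an import receptor of the outer membrane, rose by 0.32 and MUL1, a mitochondrial ubiquitin ligase, by 0.23, and MARCH5, another such ligase, fell by 0.21 on the log2 scale. MUL1 did not pass without shControl replicate 1 or shSmurf1 replicates 1 or 4, nor MARCH5 without shControl replicate 2 or shSmurf1 replicate 4. NIPSNAP2, a mitochondrial matrix protein that can tag damaged mitochondria, rose by 0.20 and was named after its value was seen; it did not pass without shControl replicates 2, 3 or 4 or shSmurf1 replicate 1.

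Of 11 other autophagy receptors 2 fell, 9 did not pass and 0 rose with edgeR (0 also at an unadjusted p under 0.05, with DESeq2 and with limma-voom). The 2 were ATL3 and RETREG1 (FAM134B), both receptors for turnover of the endoplasmic reticulum. ATL3 was measured at 137, 145, 149 and 137 CPM in shControl replicates 1 to 4 and 84.2, 79.5, 87.8 and 78.9 CPM in shSmurf1 replicates 1 to 4, a log2 fold change of −0.78 ± 0.055 (adjusted p = 4.87e-09). RETREG1 was measured at 10.8, 10.7, 10.3 and 12 CPM in shControl replicates 1 to 4 and 7.69, 7.73, 8.68 and 7.27 CPM in shSmurf1 replicates 1 to 4, a log2 fold change of −0.48 ± 0.11 (adjusted p = 0.00396). In both the groups did not overlap, and both passed in all 17 other fits. The other receptors of the endoplasmic reticulum in the list, TEX264 (0.12), CCPG1 (−0.16), SEC62 (−0.10), RTN3 (0.036) and CALCOCO1 (0.10), did not pass with all libraries. Without shSmurf1 replicate 3, 3 were lower, SEC62 included, and 0 higher. With the GC trend also removed, SEC62 without that library did not pass (−0.040, adjusted p = 0.582). WDFY3 (ALFY), a scaffold for protein aggregates, passed as higher in 1 other fit, with the GC trend removed and without that library (adjusted p = 0.0343).

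Of 10 other core genes tested, 2 rose and 2 fell (2 and 3 without shSmurf1 replicate 3). VMP1 and TMEM41B encode scramblases of the endoplasmic reticulum that act together at the growing phagophore, and they changed in opposite directions. VMP1 rose, from 170 ± 6.97 to 225 ± 26.8 CPM (SD, n = 4 each, log2 fold change 0.41 ± 0.067, adjusted p = 0.000158). The microRNA gene MIR21 lies within its exons, where reads of its transcript and of VMP1 cannot be told apart. TMEM41B fell, from 81.2 ± 2.37 to 64.3 ± 7.05 CPM (−0.34 ± 0.069, adjusted p = 0.00124). NRBF2, a partner of the lipid kinase complex, fell by 0.26 on the log2 scale. WDR45B, a WIPI family protein, rose by 0.16, and the expressed genes around it on chromosome 17 had a median of 0.37. NRBF2 did not pass without shControl replicates 1 or 4 or shSmurf1 replicate 1, nor WDR45B without shControl replicates 1, 2 or 3 or shSmurf1 replicates 1 or 4.

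Genes of fusion with the lysosome rose in 4 of 12 cases, and 0 fell with edgeR (0 also with DESeq2 and limma-voom, and 1, TECPR1, at an unadjusted p under 0.05). That is 33.3% of a short list, against 10.3% of all genes called higher and 12.2% called lower. Without shSmurf1 replicate 3, 5 were higher and 0 lower, against 16.4% and 17.3% of all genes. TECPR1, which helps autophagosomes meet lysosomes, passed as lower in 4 other fits: with the GC trend removed (−0.32, adjusted p = 0.000208), with that and without shSmurf1 replicate 3 (adjusted p = 0.000544), when genes of low counts were kept (adjusted p = 0.0296) and without shSmurf1 replicate 2 (adjusted p = 0.0230). Its expressed neighbours had a median of −0.27. VPS41, VPS11 and VPS33A belong to the tethering complexes HOPS or CORVET, and YKT6 is a SNARE of the autophagosome. VPS41 rose from 83.4 ± 2.86 to 107 ± 7.49 CPM (SD, n = 4 each, log2 fold change 0.37 ± 0.058, adjusted p = 0.000123), in a stretch of chromosome 7 whose expressed genes had a median of 0.18. VPS33A (0.28), VPS11 (0.24) and YKT6 (0.18) rose less, and YKT6 lay among genes with a median of 0.22. VPS33A did not pass without shControl replicates 1, 3 or 4 or shSmurf1 replicates 3 or 4, VPS11 without shControl replicates 1 or 4 or shSmurf1 replicate 1 and YKT6 without shControl replicates 2 or 3 or shSmurf1 replicates 1, 2 or 4. RAB7A, the GTPase that recruits HOPS (0.054), and STX17, the autophagosomal SNARE (−0.17), did not pass.

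Of 25 genes of the nutrient and energy sensors mTORC1 and AMPK, 1 rose and 5 fell, or 24.0%, close to the share of all genes. Without shSmurf1 replicate 3, 4 were higher and 8 lower. PRKAA2, a catalytic subunit of AMPK, fell from 9.12 ± 0.452 to 5.24 ± 0.723 CPM (SD, n = 4 each, log2 fold change −0.80 ± 0.13, adjusted p = 0.000199), while PRKAA1, the other catalytic subunit and the more abundant, did not pass (−0.16) except without shSmurf1 replicate 3 (−0.23, adjusted p = 0.000110) and when genes of low counts were kept (adjusted p = 0.0444). SESN2 (sestrin 2), an inhibitor of mTORC1, lay at −0.45, PRKAG2, a regulatory subunit of AMPK, at −0.36, and RHEB, the GTPase that activates mTORC1, at −0.35, and all 3 passed. The neighbours of these genes were lower too, with medians of −0.22 for PRKAA2, −0.15 for SESN2, −0.24 for PRKAG2 and −0.25 for RHEB. Their part in these values was not tested. DDIT4, an mTORC1 inhibitor induced by stress, was the remaining gene that fell (−0.24) and RPTOR the one that rose (0.24, among neighbours with a median of 0.40), both named after their values were seen. DDIT4 did not pass without shControl replicates 1, 2, 3 or 4 or shSmurf1 replicates 2 or 3. RPTOR did not pass without shControl replicates 1, 2 or 3 or shSmurf1 replicates 1, 2 or 4. MTOR itself did not pass (−0.051).

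**Figure D5:**
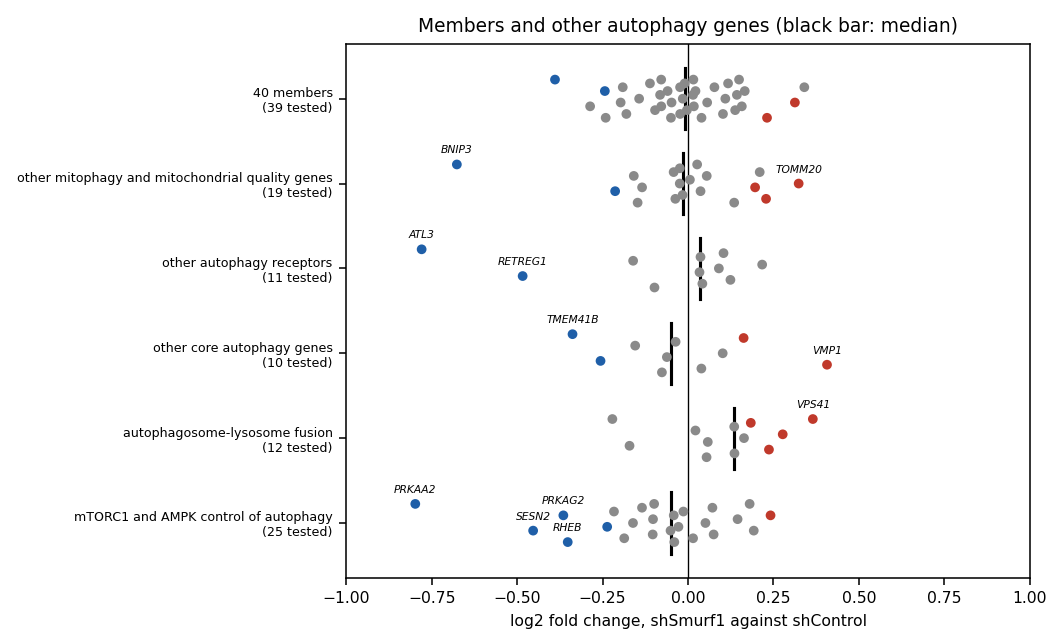
Log2 fold change of shSmurf1 against shControl (x axis) for the members and for 5 lists of other autophagy genes (rows); each point is a gene, red higher and blue lower at an adjusted p under 0.05, and black bars are medians. Members lie between −0.39 and 0.34, and BNIP3, ATL3 and PRKAA2 lie farther out than any member.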

How the data were processed

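Poly(A) RNA was sequenced after random hexamer priming, per the labels' protocols. The deposited values are whole-number counts per Ensembl gene, not normalized by the authors. The submitters' processing notes name CASAVA, fastp, HISAT2 (2.0.5) and featureCounts (1.5.0-p3). The build was not given in the sources used here. GENCODE release 29 (GRCh38) gave symbols, positions, exon lengths and GC content for all 58735 identifiers, and RefSeq (GRCh38.p14) the promoters of 34 members.

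The members and all lists were chosen with earlier results of these data known. Genes kept by filterByExpr (minimum count 10) were scaled by TMM and tested, shSmurf1 against shControl, with the quasi-likelihood F test of edgeR (4.0.16, in R 4.3.3), two-sided, without covariates and with Benjamini-Hochberg adjustment over 15647 genes. SE is the size of the log2 fold change over the root of F. A neighbour median covers 25 genes of average log2 CPM 1 or more on each side. The fit was tested on simulated counts with the same dispersion for all genes, no GC trend and a pass mark on the largest planted change only. That test does not cover a library such as shSmurf1 replicate 3, nor set a mark for small changes. All members were named, in full where the call held or changed when 1 library or the GC trend was removed, and in each other list up to 4 genes that passed, of average log2 CPM 1 or more and the largest changes; any other gene was named after its value was seen. Alternatives were DESeq2 size factors, no scaling, DESeq2 (1.42.0), limma-voom (limma 3.58.1), no filter, a filter of 1 CPM in 4 libraries, a replicate block, a loess correction of each library's GC trend and leaving out each library. The GC correction without shSmurf1 replicate 3 was added after seeing the data.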

Additional observations from a re-analysis of the deposited data

Results flagged for a closer look

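In 6 of 116 groups of 4 libraries (SMURF1, the members and the other genes named by rule, in each line) 1 library lay far from the other three by Dixon's ratio at its 95% limit, and chance flags about 1 in 20 groups. In shSmurf1, replicate 3 was the distant library for ATG101 (23.1 CPM, against 34.5 to 34.9 CPM in the others), for MAP1LC3B (53 CPM, against 36.5 to 38.7 CPM in the others) and for VMP1 (265 CPM, against 209 to 215 CPM in the others), and replicate 4 for MARCH5 (69.1 CPM, against 82 to 84.2 CPM in the others). In shControl, replicate 3 was distant for ULK1 (170 CPM, against 152 to 155 CPM in the others) and replicate 1 for ATG13 (66.2 CPM, against 70.4 to 71.2 CPM in the others).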

How the results depend on the processing

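GABARAPL2, BNIP3L and SMURF1 kept their direction and passed in all 17 other fits. AMBRA1 passed in 11 of them and ATG2A in 12, with no change of sign. Of the 35 members that did not pass, 17 passed in at least 1 other fit and 13 changed sign in at least 1, so no direction is drawn from them. The share of all genes that did so is not given here, so these counts describe the members only. Of all genes, 22.5% passed with all libraries, 33.7% without shSmurf1 replicate 3 and 28.5% with the GC trend removed. With both changes the share was 28.1%. Leaving out 1 library gave 1 to 6 members higher and 1 to 8 lower, the most without shSmurf1 replicate 3 (6 and 8), where all genes higher numbered 2601 (leave-one-out range 1216 to 2601). No scaling beyond the library total left 1 member lower, as ATG2A did not pass. Removing the GC trend gave 6 higher, and doing so without shSmurf1 replicate 3 gave 5 higher and 6 lower. The cause was not tested. The median log2 fold change of the members lay between −0.049 and 0.025 over all fits. Same-numbered libraries did not deviate together (correlations 0.055, −0.0089, −0.15 and 0.039). With so few libraries and the GC trend of shSmurf1 replicate 3, these values cannot show whether the replicate numbers pair cultures. The labels do not say. With the replicate number as a block 2 members were higher and 3 lower (TAX1BP1 added). Over the other fits the other lists gave, higher and lower, 2 to 5 and 0 to 1 for fusion, 1 to 4 and 1 to 4 for mitophagy, 0 to 4 and 4 to 8 for mTORC1 and AMPK, 0 to 1 and 2 to 3 for receptors and 1 to 2 and 1 to 3 for core genes. Low counts limit ATG10, GABARAP and MAP1LC3A, and for GABARAP reads in the shared exon stretch may also be left uncounted.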
